A study of Mus musculus with 31 samples.

Results

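The skin of C3H/HeJ mice assigned to the jak3i arm was compared with that of mice assigned to the PBS arm at 0 weeks, before any treatment. The arrays were chosen by their labels alone, which gave 3 jak3i and 3 PBS arrays, 6 of the 31 arrays in the series. The jak3i arm later received a topical inhibitor known here only by that code, which names the kinase JAK3, and the PBS arm received phosphate-buffered saline. All mice carried the C3H/HeJ background, and the series title describes established AA, read here as alopecia areata, the autoimmune loss of hair. The 3 arrays of the jak1i arm at 0 weeks, from the same strain and disease, served as a further untreated group. The series calls its replicates biological. Age, sex, the way the disease arose and whether the same mice were sampled again later are not given in the sources used here. Values are log2 RMA intensities of Affymetrix probe sets, on which a difference of 1 is a doubling.

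In alopecia areata, T cells gather around the growing hair follicle. CD8 T cells that carry the receptor NKG2D are regarded as the main effectors in mice and people, and they make interferon-γ, which induces chemokines and antigen presentation in the follicle. Interleukin-15 and the other cytokines that use the common γ chain signal through JAK1 and JAK3, and interferon-γ through JAK1 and JAK2, which is why these kinases are targeted. A difference between arms before treatment bears on how far a later difference can be ascribed to treatment.

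No gene passed the test between jak3i and PBS at 0 weeks. In limma, with Benjamini-Hochberg adjustment over 18193 genes, 0 genes (0%) had an adjusted p under 0.05, and the smallest was 0.149, for Ccdc126. At an unadjusted p under 0.05 there were 712 genes lower in jak3i (3.91%) and 666 higher (3.66%). The 3 jak3i arrays all lay below the 3 PBS arrays in 1192 genes (6.55%) and all above them in 1597 (8.78%). These shares are the background for every gene group below, and each group is described by its members without overlap of the arms and by its median difference. When the fit was limited to the 6 compared arrays, 6 genes passed, and without PBS replicate 1 there were 4, Ccdc126, Snx16, Syn3 and D130052B06Rik, of which Syn3 and D130052B06Rik are named after their values had been seen.

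The arrays held skin by its markers, with the basal keratin gene Krt14 between 13.41 and 14.01 and the suprabasal keratin gene Krt10 between 13.89 and 14.34 over the 9 arrays at 0 weeks. Xist, the X-inactivation transcript, lay between 12.55 and 12.89, and the Y-linked Eif2s3y between 3.31 and 3.43, in these arrays. The PBS arrays resembled each other more closely than the jak3i arrays did. Over all genes the correlation between arrays was 0.990 to 0.995 within PBS and 0.984 to 0.987 within jak3i, as a description across genes of arrays that were normalized together. No jak3i array had its closest partner in its own arm. Replicate 1 was closest to jak1i replicate 3 (0.994), replicate 2 to jak1i replicate 1 (0.993) and replicate 3 to PBS replicate 1 (0.9872, against 0.9867 with jak3i replicate 1). Replicate 2 also lay closer to each PBS array (0.988 to 0.989) than to either other jak3i array. Values of single arrays are therefore given throughout, in the order of replicates 1, 2 and 3.

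Genes of the T cell receptor complex stood lower in jak3i skin. Of the 20 measured genes of the receptor, its coreceptors and its first signalling steps, 7 had all jak3i arrays below all PBS arrays and 0 had them above, 19 had a negative difference, and the median was −0.44 against 0.01 over all genes. None passed the threshold. In whole skin, fewer T cells and less RNA of these genes per cell cannot be told apart. Cd3g, which encodes a signalling chain of the receptor, measured 7.97, 8.38 and 7.98 in jak3i and 9.03, 9.34 and 9.48 in PBS. The arms did not overlap, and the highest jak3i array lay 0.66 below the lowest PBS array. The difference was −1.17 (SE 0.26, adjusted p = 0.391). Cd3d, the δ chain, showed the same order with a small gap, at 7.66, 8.15 and 7.50 against 8.19, 8.73 and 8.65, a difference of −0.76 (SE 0.21, adjusted p = 0.418).

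Among the coreceptors Cd8a stood lower and Cd4 did not. The 5 probe sets of Cd8a all differed in the lower direction, by −1.66 to −0.19. Cd8a, the α chain of the coreceptor that cytotoxic T cells carry, measured 7.30, 7.71 and 6.82 in jak3i and 8.32, 8.28 and 8.58 in PBS, without overlap, a difference of −1.12 (SE 0.29, adjusted p = 0.418). Cd4, the coreceptor of helper T cells, measured 6.49, 6.28 and 6.70 against 6.51, 6.52 and 6.52, a difference of −0.02 (SE 0.12, adjusted p = 0.992) with a 95% interval of −0.28 to 0.23. Its other probe set differed with the opposite sign. The Cd4 values lay near the median of all values, 6.18. Group means of Cd4 in jak3i were 6.65 at 6 weeks and 6.43 at 12 weeks. Whether this probe set follows Cd4 RNA was not tested. Whether the CD8 and CD4 genes differed from each other in this respect was not tested. Zap70, the kinase that binds the activated receptor, lay at 8.57, 9.47 and 8.87 against 9.56, 10.14 and 10.06, again without overlap, at −0.95 (SE 0.28, adjusted p = 0.441). Cd3e overlapped in its highest jak3i array and lowest PBS array, at −0.53 (SE 0.16, adjusted p = 0.467).

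Killing genes were split. Of 20 measured genes of cytotoxic lymphocytes and NK cells, 6 lay lower without overlap and 0 higher, with a median of −0.33 and no call. Fasl, the ligand that triggers death in cells bearing Fas, measured 4.32, 5.50 and 4.33 in jak3i and 6.22, 6.74 and 6.75 in PBS. All jak3i arrays were below all PBS arrays, and jak3i replicate 2 stood well above the other two of its arm. The difference of −1.85 (SE 0.37, adjusted p = 0.391) had a 95% interval of −2.63 to −1.08, which is not adjusted for the number of genes. Klrd1, which encodes CD94, the partner chain of NKG2 receptors, measured 7.59, 8.09 and 7.26 against 8.70, 9.17 and 9.27, a difference of −1.40 (SE 0.40, adjusted p = 0.42). The granzyme gene Gzma lay at 10.11, 10.33 and 9.63 against 10.88, 11.71 and 11.80, without overlap, but its wide spread over the series left −1.44 (SE 0.71, adjusted p = 0.669). Ctsw, a protease gene of killer lymphocytes, differed by −0.75 (SE 0.31, adjusted p = 0.628), also without overlap. The granzyme gene Gzmc, which is not among the 20 and is named for its later change, went the other way, at 9.11, 8.78 and 8.07 against 7.95, 6.68 and 8.05. Its nearest arrays were apart by 0.022, at 1.09 (SE 0.78, adjusted p = 0.828).

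The other effector genes overlapped between the arms. Gzmb measured 10.27, 10.07 and 8.77 in jak3i and 9.74, 10.29 and 10.36 in PBS, so that jak3i replicate 3 alone lay below the PBS range, and the difference was −0.43 (SE 0.73, adjusted p = 0.972). Without that array it was 0.04. The pore gene Prf1 differed by −0.31 (SE 0.21, adjusted p = 0.813), with its other probe set of opposite sign, and Klrk1, which encodes NKG2D, by −0.19 (SE 0.32, adjusted p = 0.971). For Ifng the values were 7.86, 7.34 and 6.02 against 6.65, 6.64 and 7.04, with jak3i replicates 1 and 2 above the PBS arrays and replicate 3 below them, a difference of 0.30 (SE 0.60, adjusted p = 0.977). Ccl5, a chemokine gene of activated T cells, differed by −0.92 (SE 0.47, adjusted p = 0.688). For Gzmb, Prf1, Klrk1 and Ifng the spread between arrays was thus as large as the difference between the arms.

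**Figure D1:**
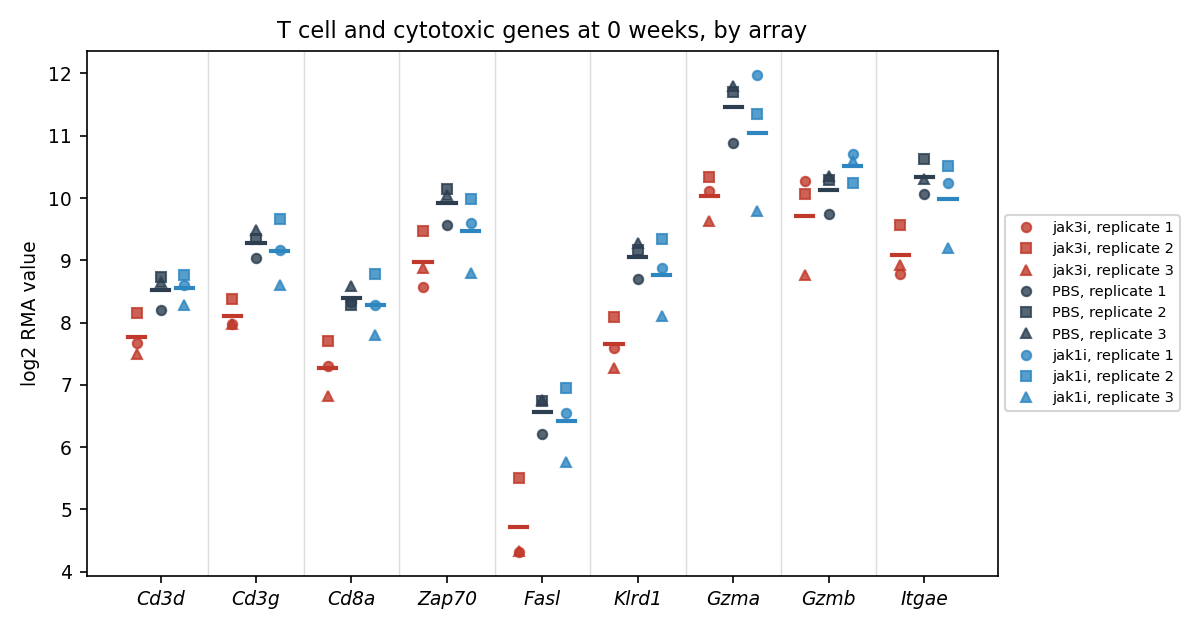
Log2 RMA values (vertical axis) of 9 T cell and cytotoxic genes at 0 weeks in jak3i, PBS and jak1i skin, with a point for each array and a bar for the mean of 3. For all genes shown except Gzmb the jak3i points lie below the PBS points, as for Fasl (4.32 to 5.50 against 6.22 to 6.75), and the jak1i points spread over a range that reaches toward both.

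Genes of T cell residence lay on both sides. Itgae, the integrin chain with which T cells hold on to epithelium, measured 8.77, 9.57 and 8.93 in jak3i and 10.07, 10.63 and 10.31 in PBS, without overlap, a difference of −1.25 (SE 0.34, adjusted p = 0.418). The chemokine receptor gene Cxcr3 differed by −0.49 and Ccr2, which monocytes also use, by 0.98, each without overlap. Of the 13 measured genes of trafficking and residence 3 had no overlap, the ones just named, at a median of −0.05, which turned to 0.01 without PBS replicate 3. In the 12 genes of regulatory T cells and checkpoints only Cd274, which encodes PD-L1, separated, and it lay higher, at 0.66 (median of the list −0.08). Among 13 B and plasma cell genes none separated (median −0.06, and 0.07 without jak3i replicate 1).

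The genes of the kinases Jak3 and Jak1 did not separate the arms, and some feedback genes of the pathway did. Jak3, which encodes the kinase that the arm's later treatment names, measured 5.72, 5.51 and 5.74 in jak3i and 5.50, 5.51 and 5.98 in PBS, values below the median of all probe sets, with a difference of −0.01 (SE 0.14, adjusted p = 0.999) and a 95% interval of −0.30 to 0.29. Jak1 differed by −0.08 (SE 0.15, adjusted p = 0.975), with an interval of −0.38 to 0.23. Il15, the cytokine gene that sustains CD8 T cells, differed by −0.15 (SE 0.24, adjusted p = 0.97). Il7, another cytokine gene of the family, lay lower without overlap at −0.72 (SE 0.33, adjusted p = 0.652), and was the only such gene among 13 γ-chain cytokine and receptor genes. Of 10 kinase and STAT genes, Stat5a, Jak2 and Stat3 lay higher without overlap, by 0.25, 0.23 and 0.20, and Tyk2 lower by −0.13. Another probe set of Stat3 had the opposite sign. Of 11 feedback and target genes, Bcl3 (0.96), Socs3 (0.58) and Socs1 (0.55) lay higher and Bcl6 lower (−0.31), all without overlap and none past the threshold. The mean of this list lay higher in each jak3i array (0.28, 0.14 and 0.15) than in any PBS array (0.02, −0.18 and −0.01). It was not particular to jak3i: the jak1i arrays at 0 weeks had means of 0.17, −0.001 and 0.33. The list median against PBS was 0.19 for jak1i and 0.19 for jak3i.

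Macrophage genes went the other way and stood higher in jak3i skin. Of 16 measured genes, 9 had all jak3i arrays above all PBS arrays and 0 below, with a median of 0.72, and none was called. Fcgr1, the high-affinity Fc receptor of monocytes and macrophages, measured 8.52, 8.56 and 8.85 in jak3i and 6.89, 6.91 and 7.16 in PBS. The arms were 1.36 apart at their nearest arrays, and the difference was 1.65 (SE 0.69, adjusted p = 0.627). Its standard error comes from all 31 arrays, among which Fcgr1 varied more than within these arms. In a fit to the 6 compared arrays Fcgr1 passed, at an adjusted p of 0.0307. The other probe set of Fcgr1 differed by 0.42. The mannose receptor gene Mrc1 lay at 10.43, 10.35 and 10.75 against 9.83, 9.29 and 9.16, a difference of 1.09 (SE 0.48, adjusted p = 0.636). The scavenger receptor gene Msr1 differed by 1.09 (SE 0.47, adjusted p = 0.636) and the Fc receptor gene Fcgr3 by 1.07 (SE 0.49, adjusted p = 0.658), both without overlap.

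Chemokine genes lay on both sides. Of 14 measured, 6 had a negative difference, 4 were higher and 1 lower without overlap, and the median was 0.16 (0.04 without jak3i replicate 2 and 0.31 without jak3i replicate 3). Ccl12, which attracts monocytes in mice, measured 8.08, 8.03 and 8.06 in jak3i and 7.22, 6.80 and 6.62 in PBS, a difference of 1.18 (SE 0.61, adjusted p = 0.694). Ccl7 differed by 1.42 (SE 0.68, adjusted p = 0.659) and Ccl8 by 0.97 (SE 0.44, adjusted p = 0.652), and in all of these the arms did not overlap. Ccl22, which dendritic cells make to attract T cells, lay on the lower side at 6.97, 7.38 and 6.99 against 7.75, 8.85 and 8.45, a difference of −1.24 (SE 0.33, adjusted p = 0.418). Among 12 neutrophil genes Fpr2 (1.58), Il1b (1.06) and Csf3r (0.66) were higher without overlap. Mast cell genes had a median of 0.69, which was 0.26 without jak3i replicate 3, while dendritic and Langerhans cell genes had one of −0.12.

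**Figure D2:**
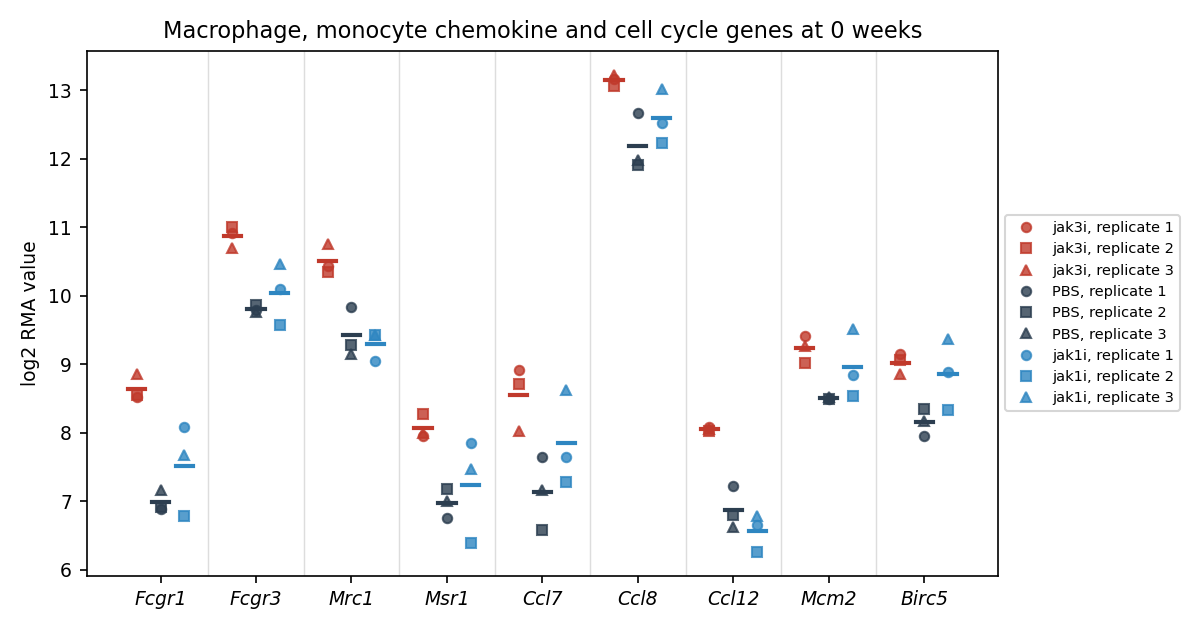
Log2 RMA values (vertical axis) of macrophage, monocyte chemokine and cell cycle genes at 0 weeks, with a point for each array and a bar for the mean of 3. For each gene shown the 3 jak3i points lie above the 3 PBS points, as for Fcgr1 (8.52 to 8.85 against 6.89 to 7.16).

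Interferon-induced genes were not lower in jak3i as groups, and their intervals were wide. Cxcl9, a chemokine gene that interferon-γ induces and that draws T cells through CXCR3, measured 13.16, 13.16 and 12.04 in jak3i and 12.65, 12.65 and 12.66 in PBS, a difference of 0.13 (SE 1.07, adjusted p = 0.995) with a 95% interval of −2.09 to 2.35, and its other probe set had the opposite sign. Cxcl10 differed by 0.23 (SE 1.01, adjusted p = 0.99) and Cxcl11 by −0.06 (SE 0.97, adjusted p = 0.999). In each of these jak3i replicate 3 was the lowest of the 6 arrays. The 19 genes of the interferon-γ response had a median of 0.26, with 3 higher without overlap (Cd274, Socs1 and Gbp7), and the 18 of the type I response one of 0.35, with 4 (Zbp1 0.82, Ifit2 0.54, Oasl1 0.51 and Oas3 0.47). Antigen presentation genes showed no separation, with medians of −0.03 over 12 class I and 0.07 over 9 class II genes and 0 members without overlap in either. Leaving out 1 array in turn gave medians of 0.11 to 0.45 for the interferon-γ, 0.22 to 0.59 for the type I, −0.11 to 0.18 for the class I and 0.02 to 0.14 for the class II genes, with the highest in each but class II from leaving out jak3i replicate 3. A lower interferon response in jak3i skin at the start was thus not detected with 3 arrays an arm.

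Mitotic genes had the highest share of members without overlap among the 37 lists. Of 19 cell cycle genes 18 had all jak3i arrays above all PBS arrays, at a median of 0.65, and 0 were called. Mcm2, a subunit of the helicase that opens replication origins, measured 9.42, 9.01 and 9.27 in jak3i and 8.49, 8.50 and 8.52 in PBS, a difference of 0.73 (SE 0.27, adjusted p = 0.59). The mitotic kinase gene Aurka differed by 0.75 (SE 0.36, adjusted p = 0.659), the spindle checkpoint gene Bub1 by 0.73 (SE 0.56, adjusted p = 0.854) and Birc5, which encodes survivin, by 0.86 (SE 0.44, adjusted p = 0.68). The other probe sets of Aurka and Bub1 differed by 0.14 and 0.008. Genes of 1 program tend to move together, so their number does not add independent evidence. In skin these genes are active in the hair matrix and the basal epidermis as well as in dividing immune cells.

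Follicle and pigment genes varied widely within jak3i. The mean of the hair shaft list, relative to the 31 arrays, was 2.80, 1.66 and 1.01 in jak3i and 1.05, 1.42 and 1.06 in PBS. Only jak3i replicate 1 stood far from the PBS arrays. The median over 25 hair shaft genes was 0.66, which became 0.10 without that array and 1.16 without jak3i replicate 3, and 1 member, Krt35, separated. Of 8 regulators of the hair matrix, Shh (1.50), Lef1 (1.004) and Msx1 (0.89) lay higher without overlap. The other probe sets of Shh, Lef1 and Msx1 differed by 0.14, 0.88 and 0.26. Melanocyte genes, which are read in pigmented growing follicles, gave list means of 1.92, −0.43 and 0.92 in jak3i and −0.48, −0.67 and −0.64 in PBS. Tyr, which encodes the pigment enzyme tyrosinase, measured 9.31, 5.23 and 7.72 against 4.83, 4.75 and 5.04, high in jak3i replicates 1 and 3 and barely above PBS in replicate 2, with a difference of 2.55 (SE 1.29, adjusted p = 0.684). Mlana (2.43), Pmel (2.20) and Tyrp1 (1.97) followed the same arrays, and 5 of 10 melanocyte genes had no overlap.

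**Figure D3:**
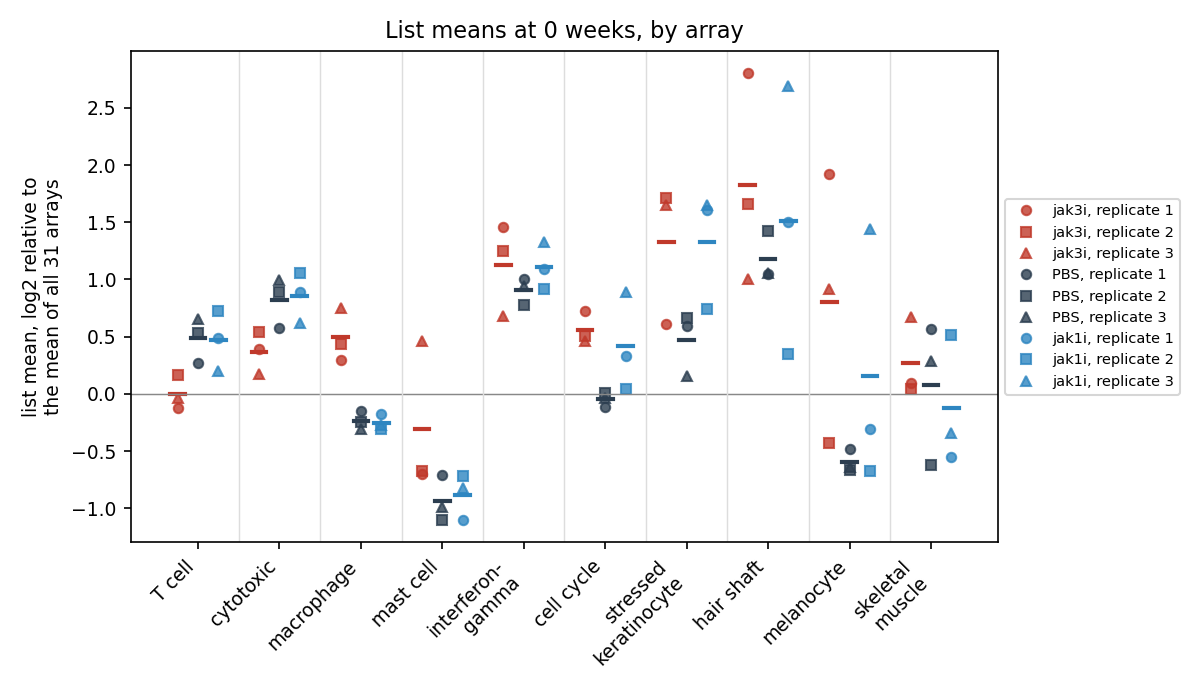
Means of 10 gene lists at 0 weeks (vertical axis, log2 relative to the mean of all 31 arrays), with a point for each array and a bar for the mean of an arm. The T cell points of jak3i (−0.13 to 0.17) lie below those of PBS (0.27 to 0.65), the macrophage and cell cycle points above them, and the hair shaft and melanocyte points of jak3i are spread widely.

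The melanocyte and cell cycle list means stood higher in jak3i beside the lower lymphocyte genes, while the hair shaft means overlapped between the arms. The part of these lists in the lymphocyte result was not tested. With the mean of the hair shaft genes as a covariate the median of the T cell list was −0.46, that of the macrophage list 0.70 and that of the cell cycle list 0.48. When each array was left out in turn, the medians ranged over −0.53 to −0.30 for T cell, −0.48 to −0.19 for cytotoxic, 0.50 to 0.81 for macrophage and 0.54 to 0.68 for cell cycle genes. For the cytotoxic list the value nearest 0 came from leaving out jak3i replicate 3.

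Lists of other tissues gave medians whose size, and for some the sign, rested on single arrays. Skeletal muscle genes had a median of 0.17 and no member without overlap among 22, and their list mean ranged from 0.04 to 0.67 in jak3i and from −0.62 to 0.57 in PBS. Medians were 0.20 for fat cells, 0.15 for endothelium, 0.28 for fibroblasts and collagen, −0.01 for the sebaceous gland and −0.16 for epidermal differentiation. Leaving out 1 array in turn gave −0.17 to 0.39 for muscle, −0.01 to 0.52 for fat cells, −0.10 to 0.34 for endothelium, −0.28 to 0.22 for the sebaceous gland, 0.01 to 0.42 for fibroblasts and −0.36 to −0.02 for epidermal differentiation. Without jak3i replicate 3 the medians of muscle, fat cells and endothelium turned negative, as did that of muscle without PBS replicate 2, and no direction is read for them. Stressed keratinocyte genes had a median of 0.94 over 11 genes (0.20 without jak3i replicate 2) and 2 without overlap. The stefin gene Stfa3 measured 11.87, 11.62 and 12.48 against 10.42, 9.52 and 9.60, a difference of 2.15 (SE 0.78, adjusted p = 0.58), and the cornified envelope gene Sprr2h differed by 1.19 (SE 0.98, adjusted p = 0.871). All 12 measured clock output genes had a negative difference, at a median of −0.27, of which only Hlf (−0.83) had no overlap. Medians were 0.47 for the inner root sheath, 0.33 for the dermal papilla, −0.13 for the follicle bulge, −0.13 for Schwann cells and 0.11 for blood genes, of which the dermal papilla had 2 members higher without overlap and the bulge 1 higher and 1 lower. Without jak3i replicate 1 the inner root sheath came to 0.11 and the dermal papilla to 0.16, and the dermal papilla was 0.58 without jak3i replicate 2 and 0.21 without replicate 3, where the inner root sheath was 0.80. The ranges were −0.29 to −0.05 for the bulge, −0.19 to 0.0041 for Schwann cells and 0.06 to 0.25 for blood. Immediate early and heat shock genes had a median of −0.17 (−0.34 to −0.09 when 1 array was left out), and the clock median ranged over −0.39 to −0.07, nearest 0 without jak3i replicate 2.

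**Figure D4:**
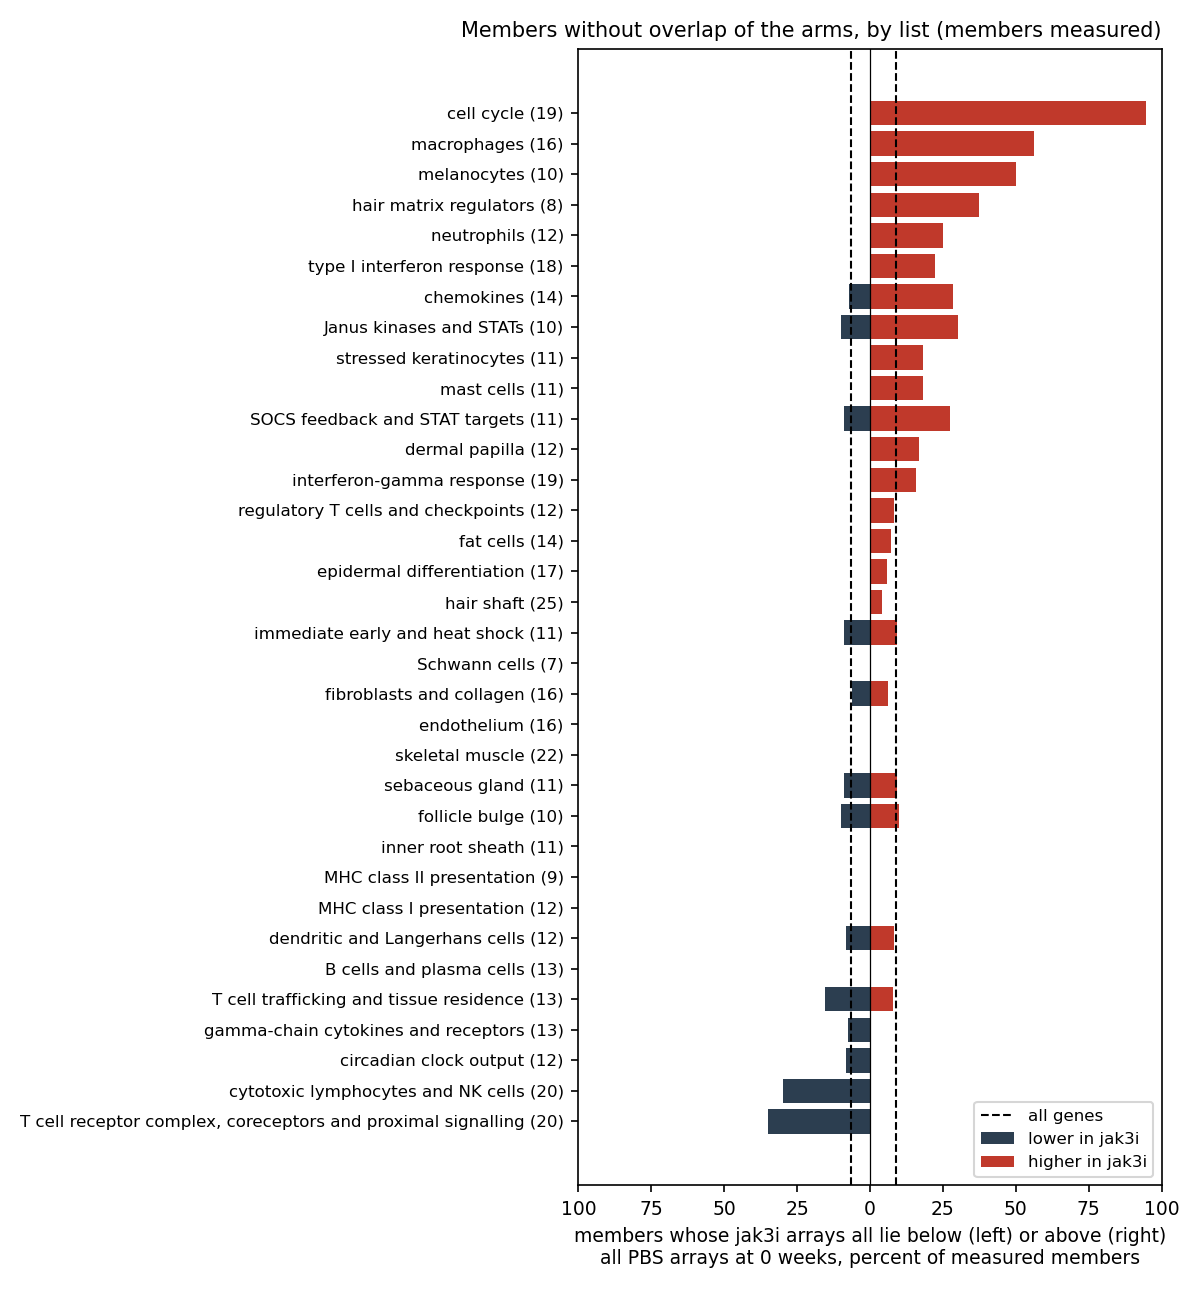
Share of each list's measured members (horizontal axis, percent) whose 3 jak3i arrays all lie below the 3 PBS arrays (left) or all above them (right) at 0 weeks, with dashed lines at the shares over all genes (6.55% and 8.78%). T cell and cytotoxic lists reach 35% and 30% on the lower side, and cell cycle, macrophage and melanocyte lists 94.7%, 56.3% and 50% on the higher side.

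Among all genes without overlap of the arms, those with the smallest p on the lower side were led by Ccdc126, at 7.05, 6.90 and 7.16 in jak3i and 7.40, 7.75 and 7.78 in PBS, a difference of −0.61 (SE 0.11, adjusted p = 0.149). Fasl and Cd3g came among the next ones, as did Tbc1d10c (−1.07), Nlrc3 (−1.30) and Ppp2r2b, a phosphatase subunit gene (−1.48). The others were Snx16 (−0.68), Pla2g5 (−1.35), Ehd3 (−0.82), Sema6d (−0.68), Vmn2r84 (−0.66) and Znf41-ps (−0.58), of which Sema6d has a probe set of opposite sign, and adjusted p-values of these lay between 0.149 and 0.418. The other probe sets of Ppp2r2b and Nlrc3 differed by only −0.04 and −0.14. The 12 on the higher side differed by small amounts, from 0.30 for Fbxl14 to 1.02 for the metallothionein gene Mt1. Snrpb, a core protein of the spliceosome, measured 11.74, 11.74 and 11.73 against 11.38, 11.27 and 11.26, a difference of 0.43 (SE 0.09, adjusted p = 0.391). Tcof1 (0.65) and Rcl1 (0.40) act in ribosome synthesis, Wdr4 (0.43) and Gtpbp3 (0.41) in tRNA modification, although with the mean of all probe sets these came to 0.082 and 0.083, and each has a probe set of opposite sign. Ruvbl1 (0.44) acts in chromatin and snoRNP assembly. The other members were Atad3a (0.40), Cdkn2aipnl (0.34), Slc35f2 (0.74) and Dctpp1 (0.45). The other probe sets of Slc35f2 and Mt1 differed by 0.13 and 0.36.

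The jak1i arm, sampled at the same time, gave a further reference. The comparisons of jak3i and of jak1i with PBS share the PBS arrays, so their values are only set side by side. T cell genes had a median of −0.05 in jak1i against PBS and of −0.48 in jak3i against jak1i, and macrophage genes of −0.09 and 0.77. For cell cycle genes the same medians were 0.46 and 0.14. They were 0.75 and −0.16 for stressed keratinocyte genes and 0.56 and −0.17 for type I interferon genes. By these medians jak1i lay nearer to jak3i than to PBS, but its replicate 2 lay close to the highest PBS array. The jak1i list means were 0.33, 0.04 and 0.89 for cell cycle, 1.61, 0.74 and 1.65 for stressed keratinocyte and 1.14, 0.71 and 1.19 for type I interferon genes. The highest PBS means were 0.01, 0.66 and 0.71. For melanocyte genes the medians were 0.79 and 0.71, with jak1i list means of −0.31, −0.67 and 1.44. Against all 6 other arrays at 0 weeks together, the 3 jak3i arrays were the lowest in 224 genes (1.23%) and the highest in 224 (1.23%). Among them were 4 of 20 T cell and 4 of 20 cytotoxic genes on the lower side, and 8 of 16 macrophage and 0 of 19 cell cycle genes on the higher side. Fasl measured 6.54, 6.95 and 5.75 in jak1i, and the difference of jak3i minus jak1i was −1.70 (SE 0.37, adjusted p = 0.971). Cd8a in jak1i measured 8.29, 8.78 and 7.80 and Fcgr1 8.09, 6.79 and 7.67. For Gzma the jak1i values were 11.98, 11.35 and 9.79, so that its replicate 3 lay among the jak3i arrays.

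In limma no gene passed between jak3i and jak1i (0% of 18193, smallest adjusted p 0.971) or between jak1i and PBS (0%, smallest 0.983). At an unadjusted p under 0.05 there were 775 (4.26%) and 917 genes (5.04%), and 1378 between jak3i and PBS. Single arrays moved the counts that involve jak3i by over 1.5 times, so the order of the counts is not read. The count between jak1i and PBS ranged from 651 to 1327 when 1 array was left out. The count between jak3i and PBS was 710 without PBS replicate 2. That between jak3i and jak1i was 350 without jak1i replicate 2, 1480 without jak1i replicate 3 and 1487 without jak3i replicate 2. The smallest p between jak3i and jak1i belonged to Fasl, Inha (−0.58) and Fcamr (−0.46) on the lower side and to Ppp2r2cos (0.42), the muscle myosin gene Myh2 (2.43) and Ncbp2 (0.50) on the higher side. Between jak1i and PBS they belonged to Tcf7l1 (−0.44), Ddx43 (−0.37) and Fam13b (−0.34) and to Nsmce1 (0.45), Tmbim7 (0.48) and Apof (0.53).

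The start of the arms was then set against their later difference, which asks how much of that difference was there before treatment. For Fasl the level moved from 4.71 ± 0.68 to 3.61 ± 0.23 (mean ± SD, n = 3) in jak3i and from 6.57 ± 0.30 to 5.81 ± 0.50 in PBS between 0 and 12 weeks. The arms differed by −1.85 at 0 weeks and by −2.20 at 12 weeks, and the difference between those, the change in jak3i minus the change in PBS, was −0.35 (SE 0.53, adjusted p = 0.727) with a 95% interval of −1.44 to 0.75. For Cd3g the arms differed by −1.17 at 0, −1.32 at 6 and −1.27 at 12 weeks, which left −0.10 (SE 0.37, adjusted p = 0.901) and an interval of −0.87 to 0.68. For Cd8a the differences were −1.12, −1.37 and −1.80, which left −0.68 (SE 0.42, adjusted p = 0.316) and −1.54 to 0.18. The interval of each of these includes 0, and that of Cd8a reaches down to −1.54, which does not show that the difference stayed the same. Fasl in jak3i started toward the low end of a scale that begins at 2.59, where a further fall can be understated. Fasl and Cd3g were also named for their difference at 0 weeks, which enters this change with opposite sign.

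The change relative to PBS passed the threshold for Gzma, Gzmb, Ifng, Ccl5, Prf1 and Klrk1. Whether it differed from that of Fasl, Cd3g and Cd8a was not tested. Gzma differed between the arms by −1.44 at 0 weeks and −5.47 at 12 weeks, and it fell in jak3i beyond PBS, at −4.03 (SE 1.01, adjusted p = 0.0316). Gzmb (−3.59 (SE 1.04, adjusted p = 0.0494)), Ifng (−3.37 (SE 0.85, adjusted p = 0.0326)), Ccl5 (−2.89 (SE 0.66, adjusted p = 0.0242)), Prf1 (−1.12 (SE 0.29, adjusted p = 0.0384)) and Klrk1 (−1.59 (SE 0.45, adjusted p = 0.0471)) also fell in jak3i relative to PBS over 12 weeks. For Ifng and Klrk1 part of this is a rise in PBS. Mean Ifng went from 7.07 to 4.34 in jak3i and from 6.78 to 7.41 in PBS, and Klrk1 from 6.76 to 5.57 and from 6.95 to 7.35. Cxcl9 moved from 12.79 ± 0.65 to 8.45 ± 1.20 in jak3i and from 12.65 ± 0.01 to 12.72 ± 0.69 in PBS, which gave −4.40 (SE 1.52, adjusted p = 0.0821). By lists, the median difference of the arms went from −0.44 at 0 to −0.37 at 6 and −0.65 at 12 weeks for T cell genes, from −0.33 to −1.01 and −1.29 for cytotoxic genes and from 0.26 to −2.39 and −1.70 for the interferon-γ response. For the lists that started higher in jak3i, it went from 0.72 to −0.14 and −0.02 for macrophage genes and from 0.65 to −0.77 and −1.04 for cell cycle genes. In the change over 12 weeks relative to PBS, 2 of 20 T cell and 6 of 20 cytotoxic genes and 0 of 19 interferon-γ response genes passed on the lower side, against 1.96% of all genes. The calls of Gzma, Gzmb, Ifng, Ccl5, Prf1 and Klrk1 rest on single arrays: leaving out 1 of the 12 arrays of these 4 groups at a time kept the call in 1 (Klrk1) to 7 (Ccl5) of 12 fits, and all of them lost it without PBS at 0 weeks replicate 1 and without jak3i at 12 weeks replicate 1.

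**Figure D5:**
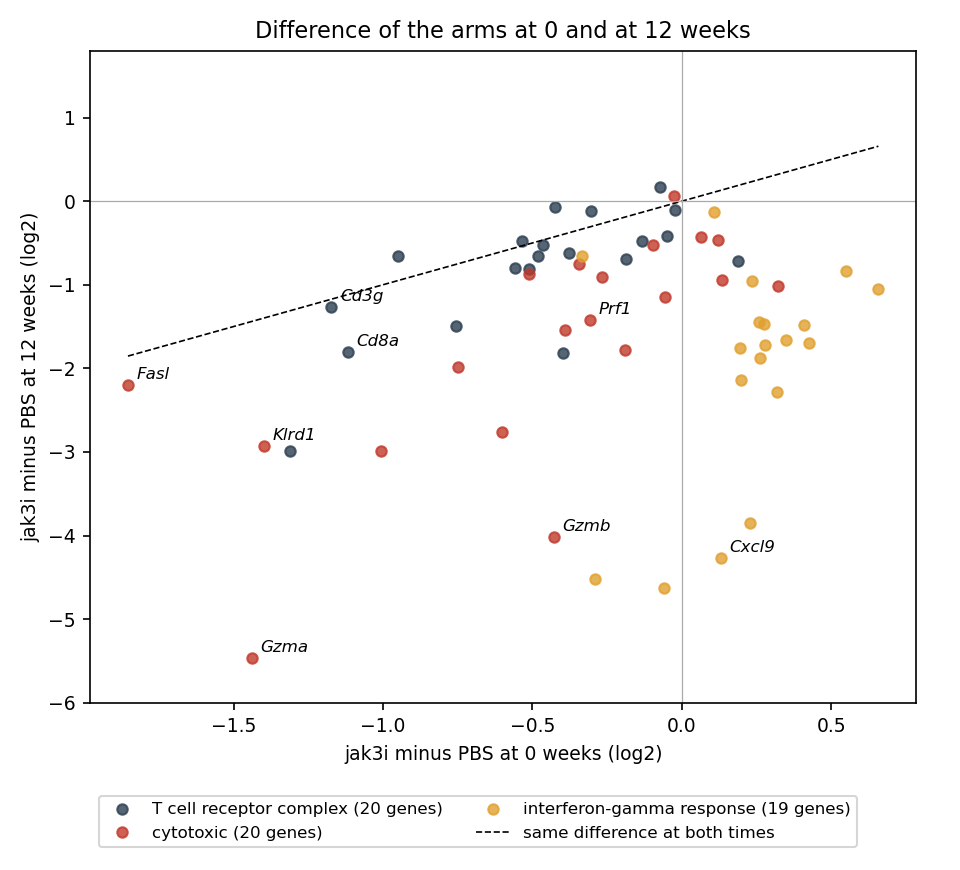
Difference between the jak3i and PBS arms (log2) of T cell receptor, cytotoxic and interferon-γ response genes at 0 weeks (horizontal axis) and at 12 weeks (vertical axis), with a point for each gene and a dashed line where both are equal. Fasl and Cd3g lie near the line, whereas Gzma (−1.44 and −5.47) and Cxcl9 (0.13 and −4.27) lie far below it.

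Over all genes, 827 of 18193 (4.55%) changed differently in jak3i and PBS from 0 to 12 weeks, 471 toward higher (2.59%) and 356 toward lower values in jak3i. The median of this change over all genes was −0.02, and with each array centred on its median the split was 355 and 494. The largest were the muscle genes Neb (6.51), Ttn (6.13) and Myot (6.06) on the higher side, where 21 of 22 muscle genes passed, and Krtap31-1 (−8.29), Chil3 (−5.38) and Gzmc (−4.42) on the lower side. Muscle genes were low in the PBS arrays at 12 weeks (Neb 5.76 ± 2.03 against 11.39 ± 0.55 at 0 weeks). With the mean of the hair shaft genes as a covariate 0 genes passed, and with that of the muscle genes 0, so all calls above were lost. The median change of these lists over 12 weeks relative to PBS was itself −5.22 for hair shaft and 4.74 for muscle genes. Either covariate takes up part of the tested change, so the loss of calls cannot decide whether the changes above hold. Single arrays moved the count by over 1.5 times. Of the jak3i arrays at the start, dropping replicate 1 left 212 genes and dropping replicate 2 left 143. Of the PBS arrays at the start, dropping replicates 1, 2 and 3 in turn left 1, 255 and 325. At 12 weeks the count fell to 0 and 460 when jak3i replicates 1 and 2 were dropped in turn and to 279 and 69 for PBS replicates 1 and 3. From 0 to 6 weeks 1 gene passed (0.0055%), Stfa3 at −7.06 (SE 1.11, adjusted p = 0.0345), and 2194 (12.1%) had an unadjusted p under 0.05. Stfa3 started higher in jak3i and lost its call without any one of the 12 arrays, at an adjusted p up to 0.175.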

How the data were processed

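Skin RNA was measured on 31 Affymetrix arrays, from total RNA extracted with a Qiagen miRNeasy kit with DNase treatment and labelled with an Affymetrix kit for 3' in vitro transcription, per the labels' protocols. The treatment time is read as weeks because the titles carry a W. The deposited table holds log2 values that the authors made with RMA (background correction, quantile normalization and probe set summary), per the submitters' processing notes. No version of it is stated in these sources. The values ran from 2.59 to 14.69 with array medians of 6.05 to 6.24. RMA removes overall differences in brightness, so changes are relative to the rest of the array, and the small number of arrays limits the precision.

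Of 45101 probe sets, 34958 named 1 gene, 932 several and 9211 none. Each of 18193 genes was represented by its brightest probe set, by the mean of all arrays. In 8 of 49 named genes with several probe sets another probe set had the opposite sign. A linear model of 11 group means was fitted with limma 3.58.1 in R 4.3.3 and tested on simulated data. Contrasts were jak3i, jak1i and PBS at 0 weeks against each other, and the change in jak3i minus the change in PBS from 0 to 6 and 12 weeks. A gene was called at a Benjamini-Hochberg adjusted p under 0.05. SE are those of the fitted difference, intervals are 95%, and p-values measure the spread between these samples. Members and lists were chosen with earlier results of these data known, so lists are described by counts and medians without a test. A list member not measured had no probe set of its own name alone in the tables used here.

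Named were the 12 smallest p in each direction among genes without overlap of the arms (gene models skipped), up to 4 members without overlap and with the largest difference from each list, 16 fixed genes, and the 3 largest or most significant genes in each direction of the other contrasts. Krt14, Krt10, Xist and Eif2s3y were named after their values had been seen. Alternatives were centring each array, filtering out 5368 genes that reached 6.18, the median of all values, in fewer than 2 arrays, the mean of probe sets, all probe sets as features, a trended and robust variance, fewer arrays in the fit, a replicate block, list means as covariates and leaving out each array.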

Additional observations from a re-analysis of the deposited data

Results flagged for a closer look

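The test of the change over time in jak3i minus that in PBS found differences between the arms, in 1 gene from 0 to 6 weeks, Stfa3 (−7.06 on the log2 scale), and in 827 genes from 0 to 12 weeks. Among the genes named above, those that passed at 12 weeks fall into groups. Many of these calls were lost when 1 of the 12 arrays was left out, as given above for Gzma, Gzmb, Ifng, Ccl5, Prf1 and Klrk1. Bcl3 and Krtap31-1 kept theirs in 2 of 12 such fits, Aurka in 3, Gzmc in 5 and Chil3 in 8. Myh2, Neb, Ttn and Myot kept theirs in 10. Genes of lymphocytes and their signals moved down in jak3i relative to PBS: Gzma (−4.03), Gzmb (−3.59), Gzmc (−4.42), Prf1 (−1.12), Klrk1 (−1.59), Ifng (−3.37), Ccl5 (−2.89) and Bcl3 (−1.74). Muscle genes moved up in jak3i relative to PBS, namely Myh2 (5.79), Neb (6.51), Ttn (6.13) and Myot (6.06), and they were low in PBS at 12 weeks. The mitotic kinase gene Aurka (−1.92), the macrophage gene Chil3 (−5.38) and the hair gene Krtap31-1 (−8.29) started higher in jak3i and moved down relative to PBS. Part of each value is a rise in PBS. Between 0 and 12 weeks mean Chil3 went from 6.60 to 3.90 in jak3i and from 3.99 to 6.68 in PBS. Krtap31-1 went from 9.52 to 4.96 and from 5.58 to 9.30, and Aurka from 7.50 to 6.56 and from 6.75 to 7.74.

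Some genes with the smallest p at 0 weeks passed the same test. Ccdc126, lower in jak3i at the start, changed by 0.81 relative to PBS. Snrpb (−0.52), Wdr4 (−0.70), Cdkn2aipnl (−0.65) and Fbxl14 (−0.55) were higher in jak3i at the start and changed in the opposite direction relative to PBS. Much of that was a rise in PBS. Between 0 and 12 weeks mean Snrpb went from 11.31 to 11.73 in PBS and from 11.74 to 11.64 in jak3i. Cdkn2aipnl went from 8.36 to 8.92 and from 8.70 to 8.62, Wdr4 from 7.28 to 7.74 and from 7.71 to 7.47, and Fbxl14 from 8.19 to 8.56 and from 8.49 to 8.31. The same arrays at 0 weeks enter both differences with opposite sign. With 1 array left out at a time, Snrpb kept its call in 4 of 12 fits, Wdr4, Cdkn2aipnl and Fbxl14 in 10 and Ccdc126 in 11.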

How the results depend on the processing

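For jak3i against PBS at 0 weeks, 0 genes passed under every alternative except the fit to the 6 compared arrays (6) and leaving out arrays (0 to 4). Both contrasts with jak1i at 0 weeks gave 0 throughout. For the change to 6 weeks the count was 0 with all probe sets, 45 with the compared arrays alone, 0 with the hair shaft and 0 with the muscle covariate, and 0 to 1 without single arrays. For 12 weeks it was 1894 with the compared arrays, 0 with either covariate and 0 to 1182 without single arrays; all other settings stayed within 1.5 times of 827.

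Whether replicate numbers pair the samples cannot be decided from so few arrays. Deviations of same-numbered jak3i and PBS arrays at 0 weeks correlated at −0.12, 0.23 and 0.19, and 4 of 6 arrays correlated best with their own number. With the replicate block 0, 1 and 614 genes passed at the start and over 6 and 12 weeks.

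Of 103 named genes at 0 weeks, 9 changed sign in some setting, all with overlapping arms. Centring gave Cd4 0.00513 and Jak3 0.022, the mean of probe sets Cd4 0.029 and Cxcl9 −0.021, and the hair shaft covariate Cxcl10 −0.098, Cxcl9 −0.072 and Jak3 0.00253. Without single arrays the ranges were −0.13 to 0.079 for Cd4, −0.088 to 0.15 for Jak3, −0.17 to 0.014 for Jak1, −0.056 to 0.51 for Cxcl9, −0.10 to 0.74 for Cxcl10, −0.33 to 0.45 for Cxcl11, −0.099 to 0.82 for Ifng, −0.71 to 0.040 for Gzmb and −0.42 to 0.020 for Klrk1. The cause was not tested. Of 518 list medians, 20 moved by more than the spread between arrays. Probe sets near the lower end of the scale, as for Fasl in jak3i, understate differences.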

Other observations

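The 6 genes that passed when limma was fitted to the 6 compared arrays alone included a group of myeloid genes, named here after their values had been seen. Ms4a6d measured 10.42, 10.23 and 10.17 in jak3i, 8.79, 8.79 and 8.68 in PBS and 9.75, 8.19 and 9.76 in jak1i (adjusted p = 0.0307 in that fit). Fcer1g, which encodes the signalling chain shared by Fc receptors, measured 10.17, 10.18 and 10.16 in jak3i, 9.25, 9.03 and 9.04 in PBS and 9.57, 9.17 and 9.85 in jak1i (adjusted p = 0.0441). Chil3, a chitinase-like gene of activated macrophages, measured 6.58, 6.93 and 6.28 in jak3i, 3.93, 4.27 and 3.79 in PBS and 4.67, 3.84 and 7.36 in jak1i (adjusted p = 0.0307). Ms4a6c (adjusted p = 0.0441) and Fcgr1 were the other higher genes, and the amino acid transporter gene Slc38a5 (adjusted p = 0.0307) was lower. In the fit to all 31 arrays their adjusted p-values were 0.518 to 0.627.

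Krtap31-1, a keratin-associated protein gene of the hair, separated the 9 arrays at 0 weeks in an uneven way, at 11.06, 10.27 and 7.24 in jak3i, 5.42, 5.79 and 5.52 in PBS and 9.98, 5.19 and 10.98 in jak1i. The PBS arrays and jak1i replicate 2 lay at the low end, and all other arrays well above them.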
